A study of Mus musculus with 16 samples.

Results

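The genes described here encode the deubiquitylation module that removes ubiquitin from histone H2B, its paralogues and the proteins that tie it to the co-activator SAGA. They are 9 listed genes (Atxn7l3, Atxn7l3b, Usp22, Usp27x, Usp51, Eny2, Atxn7, Atxn7l1 and Atxn7l2) of the 21938 protein-coding genes on the assembled chromosomes in GENCODE M21. All 9 were found in the annotation. They were listed by name and function, with earlier results of these data known, and the rule uses none of their values.

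In this module the catalytic subunit, a ubiquitin-specific protease (USP22 or its relatives USP27X and USP51), is active only when bound to the adaptor ATXN7L3 and the small protein ENY2. ATXN7 and its paralogues ATXN7L1 and ATXN7L2 anchor the USP22 module to SAGA, which also carries a histone acetyltransferase. ATXN7L3B is a short relative of ATXN7L3 that binds ENY2. The substrate, monoubiquitylated H2B (H2Bub1), lies over the transcribed part of active genes, starting past the transcription start site (TSS).

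To study chromatin without the adaptor, H2Bub1 and RNA polymerase II (Pol II, antibody to its largest subunit RPB1) were mapped by chromatin immunoprecipitation and sequencing (ChIP-seq). Cells were Atxn7l3+/+ (WT) or Atxn7l3-/- (KO) mouse embryonic stem cells (mESCs), derived from E3.5 blastocysts and grown with LIF and kinase inhibitors, or mouse embryonic fibroblasts (MEFs). The latter were prepared from E10.5 embryos from which head and gut were taken off, and may hold several cell types. The strain label of all groups is DBA/2 x C57BL/6, and the KO deletion is carried by all cells, not induced by a Cre driver in some of them. The sources used here do not say whether a library came from 1 line or embryo or from several.

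The 8 peak lists analysed hold 1 library each for 8 groups (2 cell types, 2 genotypes, 2 antibodies). With 1 library per group no difference below has a replicate check, no test was possible and no p-value is given. The depth in reads behind the lists is unknown. The lists held 11963 to 45870 Pol II peaks and 19725 to 48952 H2Bub1 peaks, and the KO list was the shorter of each Pol II pair and the longer of each H2Bub1 pair. Pol II promoter peaks stood at 6 of 7 pluripotency genes in both mESC lists and at 0 of 6 fibroblast genes. In MEFs they stood at 1 of 7 and 2 of 7 pluripotency genes in WT and KO, and at 6 of 6 fibroblast genes in both lists.

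The targeted gene comes first. Atxn7l3 (ENSMUSG00000059995) is a gene of 7332 bp with up to 13 exons on the minus strand, chr11:102289300-102296631 of mm10. The study's genotyping primers Ef and Er, shown because they bracket the deletion, matched 1 place each on chromosome 11 of GRCm38, the same build as mm10.
Ef: caaagaaagcagcatgcttggtcagg
Er: cctgcagaggaaagaggcacagag
Ef matched the minus strand in an intron at chr11:102294733-102294758, 1873 bp past the TSS, upstream of exon 3. Er matched the plus strand at chr11:102291803-102291826, with 23 bases in the last intron and 1 base in exon 13. Between Ef and Er lie 2906 bp, from 1899 to 4804 bp past the TSS, and this segment holds exons 3 to 12 of the transcripts with 13 exons. The ends of the deletion itself were not determined here, and part of the segment may remain in the KO allele.

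H2Bub1 peaks over this segment differed by genotype in mESCs. Deleted sequence gives no reads, so a gap in KO is no measure of H2Bub1 where DNA is missing. In WT mESCs 1 H2Bub1 peak ran from 325 bp before the TSS to 9941 bp past it and covered 100% of the segment. In KO mESCs 5.37% of the segment was covered, by the edges of the peaks on either side. The KO peaks left a gap of 2750 bp, whose ends lay 74 bp and 82 bp inside the segment's ends at the TSS side and the transcript-end side. The gap in KO MEFs was 2541 bp, with its ends 201 bp and 164 bp inside. WT MEFs give no such contrast, since H2Bub1 covered only 12.2% of the segment there, against 12.6% in KO MEFs.

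Outside the segment, Atxn7l3 was covered whole by H2Bub1 in KO. In these 4426 bp the covered share was 100% for either genotype of mESCs, while MEFs had 28.5% in WT and 100% in KO. In KO MEFs the 5′ peak ran from 1377 bp before the TSS to 2099 bp past it at a fold of 5.47 over background, beside a WT peak from 639 to 2253 bp at 2.88. Over the whole annotated gene, mESCs had 100% covered in WT and 62.5% in KO, and MEFs 22.0% in WT and 65.3% in KO. The lower share in KO mESCs is accounted for by the segment, since the difference without it was 0.

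**Figure D1:**
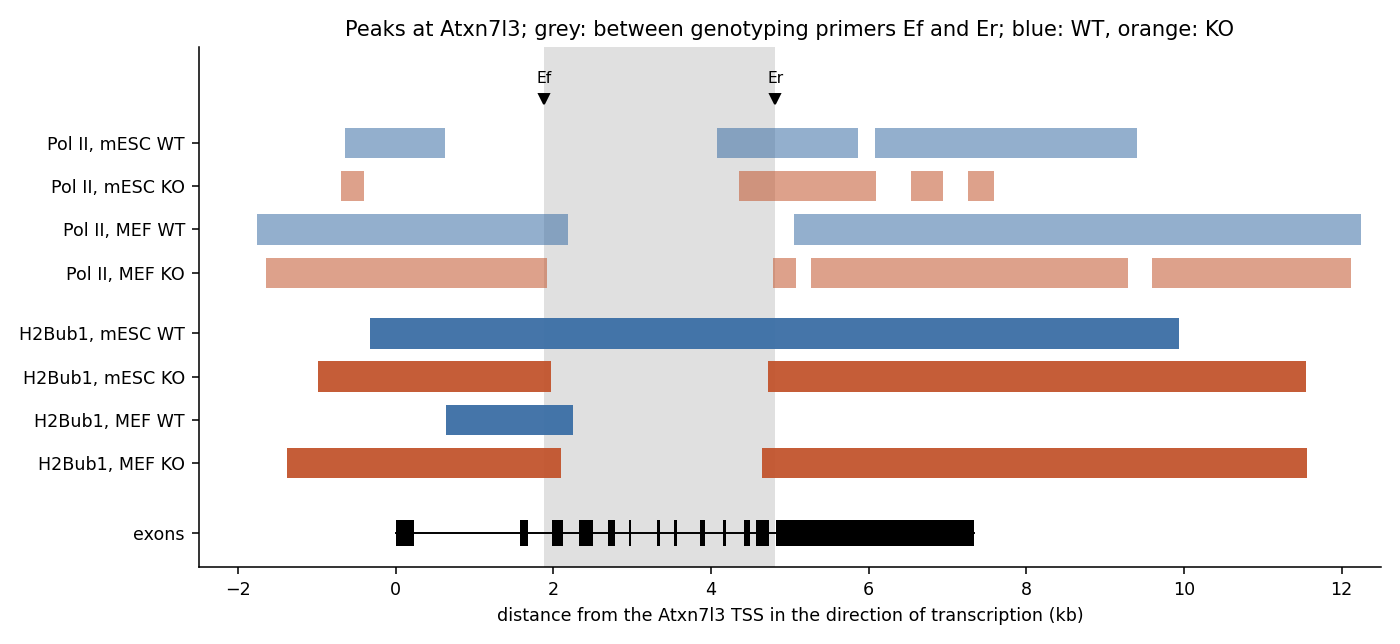
Peaks of each list at Atxn7l3 by distance from its TSS in kb (x axis), with 1 row per library, exons in black and the 2906 bp between primers Ef and Er in grey. In both KO rows of H2Bub1 the gap falls inside the grey segment, and all 4 Pol II lists have a peak within 1000 bp of the TSS and peaks beyond the segment.

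Pol II peaks were called near the start and toward the transcript end of Atxn7l3 in all 4 lists. Promoter fold, the highest fold over local background among Pol II peaks within 1000 bp of the TSS, was 3.61 in WT and 3.71 in KO for mESCs, and for MEFs 20.9 in WT and 23.4 in KO. The mESC peaks had their summits 430 bp (WT) and 513 bp (KO) upstream of the TSS, and the MEF peaks 125 bp and 126 bp downstream of it. The WT peak in mESCs ran from 642 bp before the TSS to 628 bp past it, whereas the KO peak, 290 bp wide, lay wholly upstream, from position -694 to -405 relative to the TSS. No Pol II peak thus lay on the 1899 bp between the TSS and the segment in KO mESCs, while 33.1% of them was covered in WT. Within the gene, WT mESCs had a Pol II peak from 4078 to 5870 bp at a fold of 7.36, and KO mESCs 1 from 4357 to 6095 bp at 5.77, with their summits at 5393 and 5380 bp, past the segment's end. Through the edge of this peak 15.4% of the segment lay under Pol II peaks in KO mESCs. In KO MEFs it was 1.38%, from the edges of a peak on each side. The convergent gene Tmub2 ends 63 bp past the end of Atxn7l3 and starts 11700 bp past the Atxn7l3 TSS. In MEFs, Pol II peaks had summits 11388 bp (WT) and 11378 bp (KO) past that TSS, near the Tmub2 start. Pol II and H2Bub1 peaks that run past the transcript end, by up to 4912 bp, therefore also lie on Tmub2, and ChIP-seq does not separate the strands.

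RefSeq promoter sequences (GRCm38.p6) matched 7 of the 9 genes, Usp22 and Eny2 being without an entry. The 250 bases before the RefSeq start are printed for 4 genes, chosen as the targeted gene, the X-linked protease genes Usp27x and Usp51, whose Pol II peaks were present in some lists only, and the downstream start of Atxn7, where Pol II lay. Capitals mark each GGGCGG on either strand (CCGCCC on the strand printed), the GC box.
Atxn7l3, chr11:102296630-102296879, minus strand: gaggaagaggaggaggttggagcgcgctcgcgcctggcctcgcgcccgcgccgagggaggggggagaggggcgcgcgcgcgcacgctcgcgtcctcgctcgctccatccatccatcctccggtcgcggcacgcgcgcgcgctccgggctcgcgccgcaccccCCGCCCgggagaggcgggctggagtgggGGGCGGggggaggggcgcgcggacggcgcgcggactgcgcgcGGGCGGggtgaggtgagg
Usp27x, chrX:7375831-7376080, minus strand: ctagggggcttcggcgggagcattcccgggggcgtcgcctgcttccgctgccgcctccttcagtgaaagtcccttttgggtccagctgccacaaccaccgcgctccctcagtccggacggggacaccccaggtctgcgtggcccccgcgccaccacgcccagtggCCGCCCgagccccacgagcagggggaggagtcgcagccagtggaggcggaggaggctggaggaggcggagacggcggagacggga
Usp51, chrX:153006219-153006468, plus strand: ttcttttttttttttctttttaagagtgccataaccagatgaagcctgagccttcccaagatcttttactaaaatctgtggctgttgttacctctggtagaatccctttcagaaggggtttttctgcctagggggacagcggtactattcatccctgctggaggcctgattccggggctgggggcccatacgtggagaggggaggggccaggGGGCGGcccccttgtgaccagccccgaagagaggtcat
Atxn7 downstream start, chr14:14012241-14012490, plus strand: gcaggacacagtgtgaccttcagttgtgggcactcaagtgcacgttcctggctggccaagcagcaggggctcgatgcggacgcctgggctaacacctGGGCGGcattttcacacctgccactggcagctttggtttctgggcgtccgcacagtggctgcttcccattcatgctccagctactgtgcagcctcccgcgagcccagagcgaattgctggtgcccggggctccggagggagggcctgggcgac
The 250 bases of Atxn7l3 hold 3 GC boxes and 46 CpG dinucleotides, and 81.2% of them are G or C. Usp27x holds 1 GC box and 24 CpG, Usp51 1 and 5, and the Atxn7 start 1 and 13. A GC box, which itself contains a CpG, was found in 32.7% of the 32851 promoter entries of the same length, whose median CpG count was 6. CCAAT (33.9% of entries) and TATAAA (12.4%), searched on both strands, were found in none of the windows of the 7 matched genes. Usp51 had the fewest CpG of the 4, though close to the median of all entries, and also the fewest peaks. A link between them was not tested.

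Most of these genes carried Pol II at their start. In WT mESCs a promoter peak was called at 6 of 9 genes (all protein-coding genes: 33.9%), and in KO mESCs also at 6 (31.3%), though not at the same 6. In WT MEFs all 9 had one (54.1%) and in KO MEFs 8 (51.1%). Of the 7 genes bound in either mESC list, Atxn7l3b was bound in WT only (all genes: 19.6%) and Usp27x in KO only (13.2%). With a promoter of 100 bp before to 300 bp after the TSS, Atxn7l3 was also bound in WT only (all genes: 20.5%) and Atxn7 in KO only (13.9%). Of the 9 bound in MEFs, Usp51 was bound in WT only (7.95%) and none in KO only (2.64%). The WT peak of Usp51 began 468 bp past the TSS, so that with the narrower promoter none of these genes was bound in WT MEFs only (all genes: 8.23%).

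Promoter fold was higher in KO mESCs and lower in KO MEFs than in WT for several of these genes. A KO over WT ratio of 1.5 or more was reached in mESCs by 2 of the 5 genes bound in both lists, Usp22 and Eny2 (all genes bound in both: 11.0%), and a ratio of 1/1.5 or less by 0 (10.8%). With a -log10 q of at least 3, or with equal numbers of peaks, the former count was 1 of 4, Eny2 (all genes: 10.2% and 8.64%). The WT peak of Usp22 was then no longer in the list. In MEFs 0 of 8 reached the upper bound (5.72%) and 4 the lower, Atxn7l3b, Usp22, Atxn7 and Atxn7l2 (24.3%). The lower bound was also reached in MEFs by 5 of the 6 fibroblast markers, and its part in the values of these genes was not tested. The median ratio of the genes was 1.17 in mESCs, beside 1.02 over all genes bound in both lists, and 0.762 in MEFs, beside 0.853. The fold is relative to a local background whose source, input or the library itself, is unknown. These ratios therefore compare positions within lists and give no absolute change in Pol II.

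**Figure D2:**
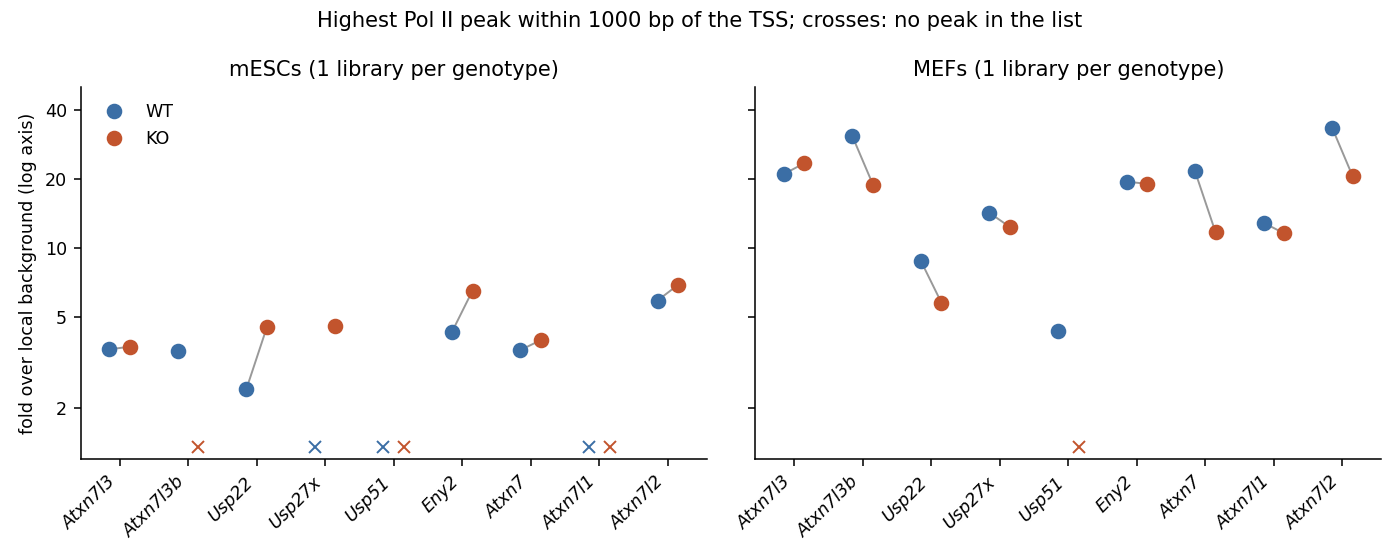
Highest fold over local background among Pol II peaks within 1000 bp of the TSS (y axis, log scale) for the 9 genes (x axis) in mESCs and MEFs, WT in blue and KO in orange, 1 library each and crosses where no peak was called. MEF folds range from 4.32 to 33.3 and mESC folds from 2.42 to 6.90, and the KO point of Usp22 lies above WT in mESCs and below it in MEFs.

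H2Bub1 covered more of most of these genes in KO than in WT in MEFs, and of fewer in mESCs. At least 1 peak lay in the gene body of 8 of 9 genes in WT mESCs (all genes: 53.6%), and of 8 in KO mESCs (60.8%). For MEFs the number was 7 with WT (30.4%) and 8 with KO (53.0%). With a -log10 q of at least 3 the WT counts were 3 in mESCs (all genes: 21.3%) and 2 in MEFs (5.52%), and both KO counts were 8 (44.1% and 48.1%). In MEFs the covered share of the body was higher in KO by 10 percentage points or more at 6 of 8 genes (all genes with a peak: 84.4%) and lower at 0 (0.205%). In mESCs it was higher at 2 of 8, Atxn7l3b and Usp27x (50.4%), and lower at 1, Atxn7l3 (4.41%). The lower share of Atxn7l3 comes from the segment between Ef and Er, outside which the difference was 0. The mESC count of higher genes was 4 of 8 with a -log10 q of at least 3 (all genes: 55.8%), where Usp22 and Atxn7l2 joined, and 4 of 8 with a limit of 5 points (62.9%), where Atxn7l1 and Atxn7l2 joined. The median difference over the 8 genes was 50.5 percentage points in MEFs, beside 34.4 over all genes with a peak in either list, and 4.01 in mESCs, beside 10.2.

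H2Bub1 peaks also reached back over the start site. In WT mESCs 4 of 9 TSSs lay inside an H2Bub1 peak (all genes: 17.8%), and in KO mESCs 7 (38.6%), with Atxn7l3b, Usp22 and Usp27x added. With a -log10 q of at least 3 the number was 2 in WT and 7 in KO, and no share over all genes is given there. Over all genes, the share with an H2Bub1 peak in the body fell at that setting, from 53.6% to 21.3% in WT mESCs. In KO mESCs it fell from 60.8% to 44.05%. The contrast of 2 and 7 is therefore not read as a result about these genes. In the main setting, only the TSS of Atxn7l3b lay inside an H2Bub1 peak in WT MEFs (3.48%), and 6 did in KO MEFs (34.8%). At Eny2 the peak extended from 697 bp before the TSS in WT to 4621 bp in KO mESCs, and to 9872 bp in KO MEFs. In WT MEFs no peak lay between 3000 bp before the TSS, the limit of the search, and 2059 bp past it. The upstream part of these peaks runs into Nudcd1, which is transcribed away from a start 265 bp inside Eny2.

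**Figure D3:**
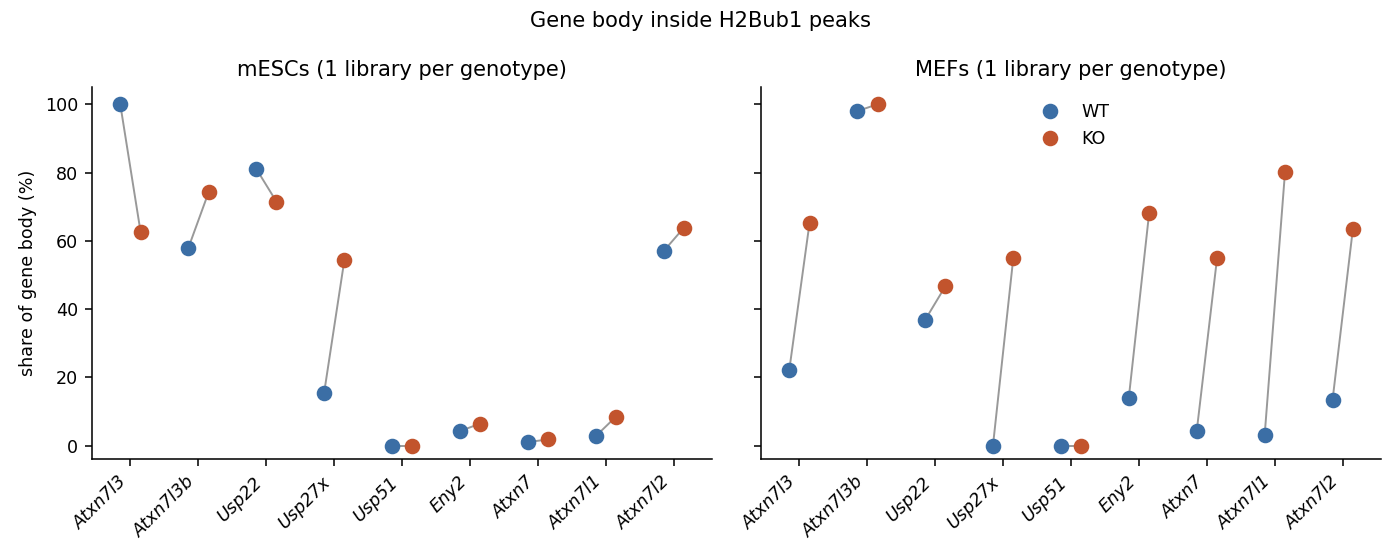
Share of the gene body inside H2Bub1 peaks in percent (y axis) for the 9 genes (x axis) in mESCs and MEFs, WT in blue and KO in orange, 1 library each. In MEFs the KO points of 6 genes lie at least 43.3 percentage points above WT, whereas Usp22, Atxn7l3b and Usp51 differ by 9.93, 1.99 and 0.

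Usp22 (ENSMUSG00000042506, chr11:61151785-61175055, minus strand, 23271 bp) encodes the protease of the SAGA deubiquitylation module. Its gene body was covered for 81.2% in WT and 71.5% in KO for mESCs, and for MEFs 36.8% in WT and 46.7% in KO. The direction in mESCs depends on the threshold, since with peaks of a -log10 q of at least 3 the share was 34.9 percentage points higher in KO. The main value thus includes WT peaks below that threshold. The 4 WT peaks in mESCs reached 22562 bp into the gene. In KO a single peak from 53 bp before the TSS to 15203 bp past it was followed by 2 short ones, the last of which ended at 22718 bp.

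H2Bub1 over Usp22 stood higher above background in KO. The fold over the covered bases, averaged by length, was 2.72 in WT and 3.21 in KO for mESCs, and for MEFs 3.67 in WT and 6.75 in KO. At the promoter, Pol II fold was 2.42 in WT mESCs, at the 0.855th percentile of the bound promoters of that list, and 4.52 in KO, at the 48.3rd. The WT peak had a -log10 q of 2.76, so that at a limit of 3 only KO had a promoter peak. In MEFs it was 8.75 in WT and 5.76 in KO, at the 26.2nd and 15.1st percentiles. All 4 lists had a Pol II peak within 3000 bp past the transcript end, the highest having folds of 5.30 (WT) and 3.29 (KO) for mESCs, and 6.71 (WT) and 3.68 (KO) for MEFs.

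Usp27x (ENSMUSG00000046269, chrX:7371276-7375830, minus strand, 4555 bp), a relative of USP22 that works without SAGA, was covered more in KO in both cell types. Its body was covered for 15.3% in WT and 54.4% in KO for mESCs, and for MEFs 0% in WT and 55.1% in KO. The KO peaks ended at nearly the same place, 2477 bp (mESCs) and 2516 bp (MEFs) past the TSS. Pol II was called at its start in KO mESCs at a fold of 4.57 and not in WT mESCs, and in MEFs at 14.2 (WT) and 12.3 (KO). The non-coding Gm14379 starts 95 bp upstream on the other strand, within the same Pol II peaks.

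Usp51 (ENSMUSG00000067215, chrX:153006469-153009416, plus strand, 2948 bp), the other SAGA-independent relative, was nearly without signal. The only peak was 1 of Pol II in WT MEFs, 468 to 1192 bp past the TSS, at a fold of 4.32 and the 6.83rd percentile of its list. No H2Bub1 peak was called on it in any list, which at unknown depth does not show that the mark is absent.

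Both relatives lie on the X chromosome, where the share of genes with a peak was higher in KO for both marks in mESCs and for H2Bub1 in MEFs, but not for Pol II in MEFs. Pol II promoter peaks were called at 9.60% of 948 X-linked genes in WT and 21.5% in KO mESCs, and at 35.0% and 31.8% of the other genes. H2Bub1 lay in the body of 17.7% (WT) and 43.1% (KO) of X-linked genes in mESCs, while the others had 55.2% and 61.6%. In MEFs the X-linked share for H2Bub1 was 8.44% in WT and 36.1% in KO, beside 31.4% and 53.8% elsewhere. Pol II promoter peaks in MEFs stood at 37.9% of X-linked genes in WT and 34.1% in KO, beside 54.8% and 51.9% elsewhere, and those at Y-linked genes numbered 4 in WT and 0 in KO. The labels do not give the sex of the cells. The part of these X-wide differences in the values of Usp27x was not tested.

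Atxn7l3b (ENSMUSG00000074748, chr10:112925430-112929001, minus strand, 3572 bp), the adaptor's short paralogue, was covered in WT MEFs more than any other of the genes. MEFs had 98.0% covered in WT and 100% in KO, and mESCs 57.8% in WT and 74.2% in KO. In KO MEFs the peak ran on to 4396 bp past the transcript end, where the WT peak had stopped 71 bp short of it, and the fold was 3.73 in WT and 6.43 in KO. Pol II at its promoter had a fold of 3.56 in WT mESCs without a peak in KO, and for MEFs 30.6 in WT and 18.8 in KO. Within the body 2 further Pol II peaks were called in WT MEFs and 1 in KO MEFs. An unverified transcript, Gm26596, starts 500 bp inside the gene on the opposite strand.

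Eny2 (ENSMUSG00000022338, chr15:44428042-44438256, plus strand, 10215 bp), which joins the protease and the adaptor, was covered for 4.21% in WT and 6.44% in KO for mESCs, and for MEFs for 14.0% in WT and 68.2% in KO. The KO MEF peak was 16840 bp wide and reached 6967 bp into the gene. Promoter Pol II had a fold of 4.30 in WT and 6.51 in KO mESCs, a ratio of 1.51, and for MEFs 19.4 (WT) and 19.0 (KO), a ratio of 0.978. This promoter is shared with Nudcd1, and Pol II at the 2 starts cannot be told apart. Near the transcript end, a Pol II peak in MEFs had a fold of 9.05 in WT and 4.61 in KO.

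Among the anchoring proteins, Atxn7 (ENSMUSG00000021738, chr14:13961440-14107302, plus strand, 145863 bp) showed 2 bound starts. At the start of the gene record, which overlaps that of Thoc7 on the other strand, the Pol II fold was 3.59 in WT and 3.96 in KO for mESCs, and for MEFs 21.5 in WT and 11.7 in KO. At the RefSeq start 51051 bp downstream, whose sequence is printed above, it was 4.57 in WT and 5.35 in KO for mESCs, and for MEFs 19.8 in WT and 22.4 in KO. Thus in MEFs the KO over WT ratio was 0.542 at the upstream start, and the KO fold was the higher one at the downstream start.

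H2Bub1 on Atxn7 in MEFs lay mostly downstream of that second start. In KO MEFs 75.5% of the 94812 bp from the RefSeq start to the transcript end was inside H2Bub1 peaks, and 16.8% of the 51051 bp before it. A KO peak began at 50859 bp, beside the Pol II peak there, which ran from 50698 to 52146 bp. In WT MEFs the shares were 6.48% and 0%. Over the whole body the share of MEFs was 4.21% (WT) and 55.0% (KO), and that of mESCs 1.01% and 1.79%.

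Atxn7l1 (ENSMUSG00000020564, chr12:33147693-33373185, plus strand, 225493 bp), the longest of the genes, had a difference of 77.1 percentage points in MEFs, or 60.0 with a -log10 q of at least 3. In KO MEFs 80.1% of it, or 180.6 kb, was inside H2Bub1 peaks, and 2.94% in WT MEFs. The widest of the 10 KO peaks spanned 78247 bp. WT mESCs had 2.72% covered and KO mESCs 8.50%, the latter in 18 short peaks, and no Pol II peak was called at its promoter in either list. In MEFs Pol II promoter fold was 12.8 in WT and 11.5 in KO, and only KO had Pol II peaks in the body, 5 with folds up to 3.53. The fold over the covered bases of Atxn7l1 was 2.99 in WT and 2.83 in KO MEFs, but over unlike areas of 6636 bp and 180572 bp. The KO peak from 7873 bp before the TSS to 70373 bp past it spanned all 5 WT peaks. Its fold was 3.68, and those of the WT peaks were 2.69 to 3.15.

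Atxn7l2 (ENSMUSG00000048997, chr3:108202222-108210934, minus strand, 8713 bp) had its Pol II summits 510 to 558 bp past the TSS of the gene record in all 4 lists, close to the RefSeq start at 407 bp. The fold was 5.89 in WT and 6.90 in KO for mESCs, and for MEFs 33.3 in WT and 20.5 in KO, the WT MEF value being the highest promoter fold of all 9 genes. H2Bub1 covered 57.0% in WT and 63.9% in KO for mESCs, and for MEFs 13.3% in WT and 63.6% in KO. The MEF difference was 50.2 percentage points, or 31.0 with equal numbers of peaks. With peaks of a -log10 q of at least 3, KO mESCs exceeded WT by 40.9 percentage points, but with equal numbers of peaks the difference was -1.52, so its direction depends on the setting.

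**Figure D4:**
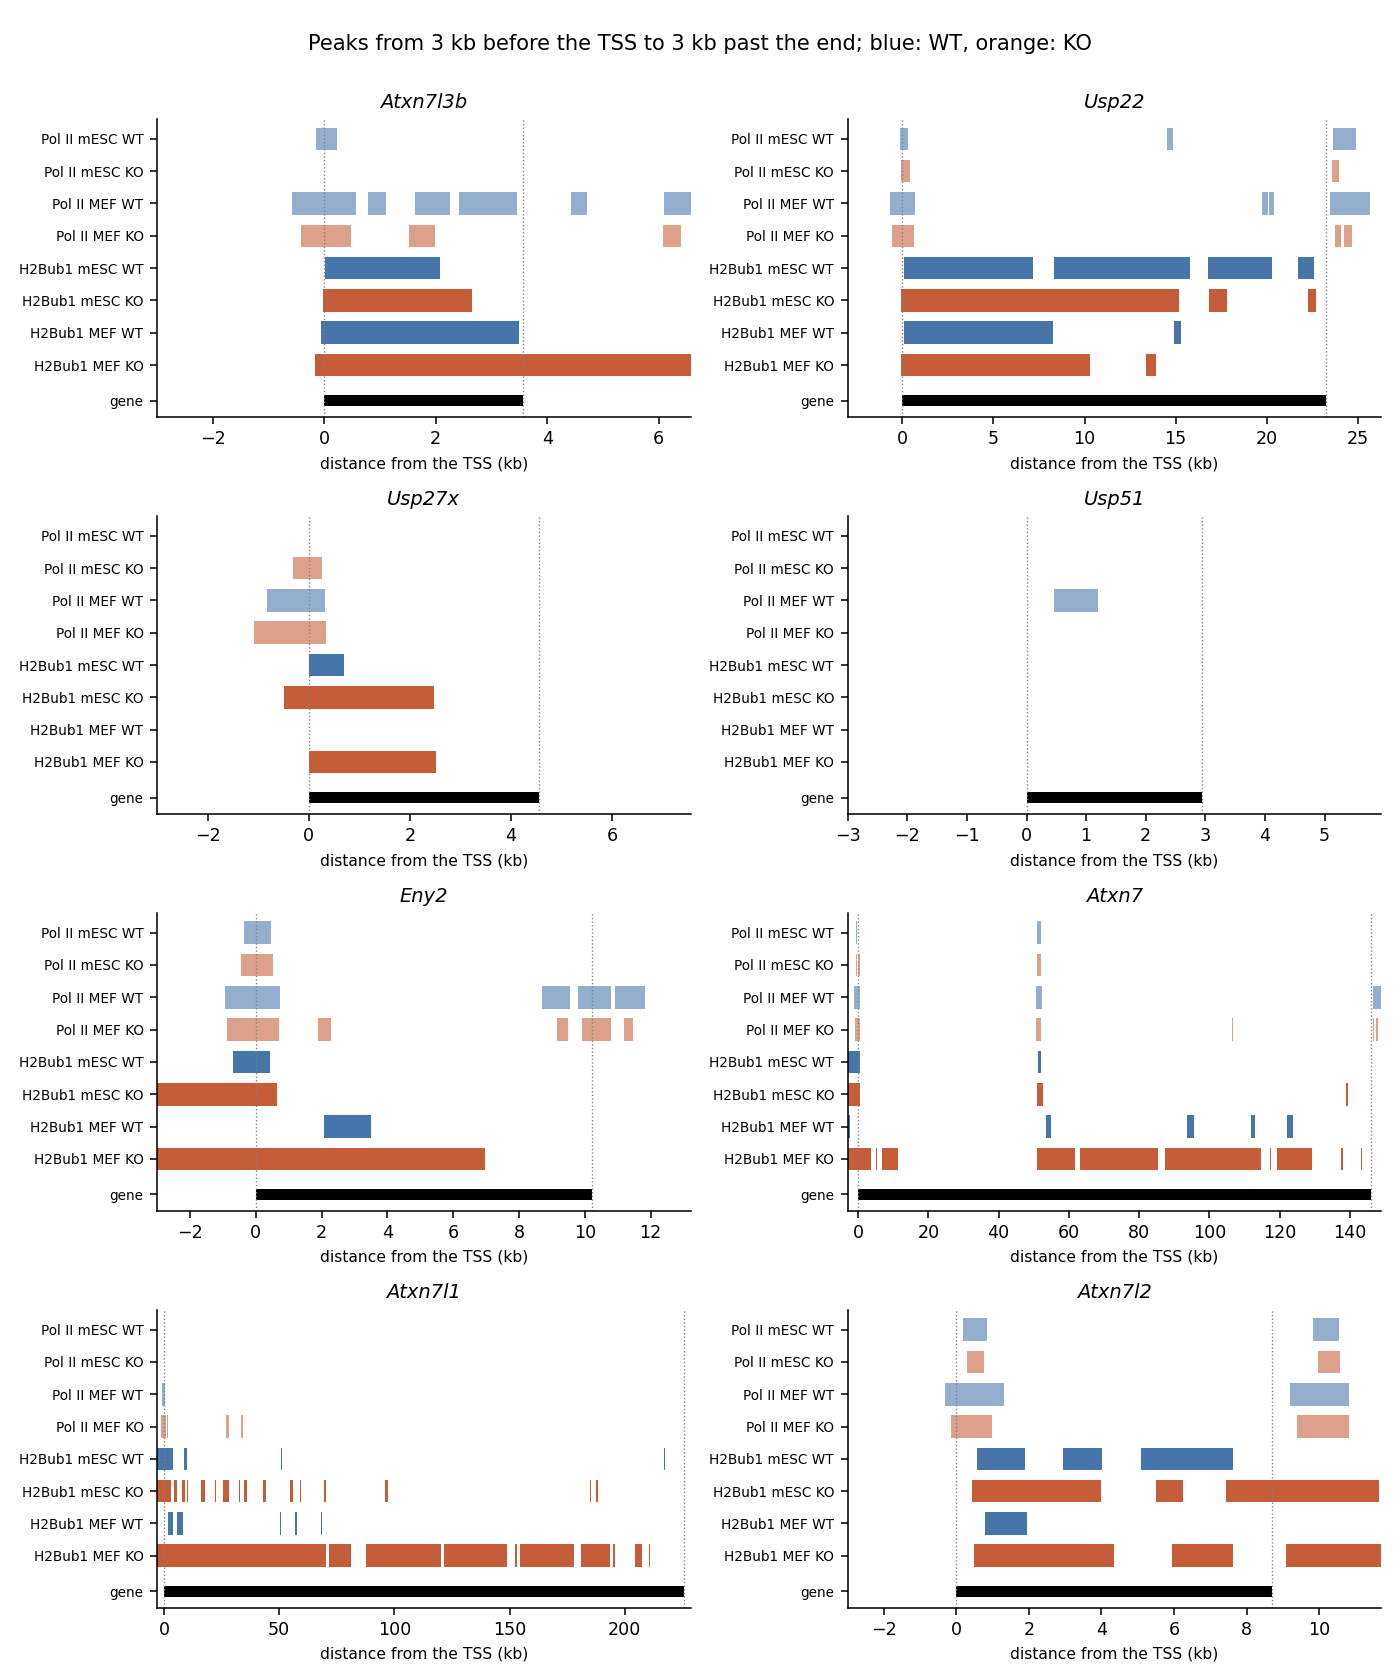
Pol II (pale) and H2Bub1 (dark) peaks from 3 kb before the TSS to 3 kb past the end of the 8 genes other than Atxn7l3, by distance from the TSS in kb (x axis), WT in blue and KO in orange, 1 row per library and the gene in black. At Atxn7 the dense H2Bub1 peaks of KO MEFs begin at the Pol II peak 51 kb into the gene, and Usp51 has no H2Bub1 peak in any row.

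Where H2Bub1 was present in both lists, its height above background differed between WT and KO about as it did for genes in general. The fold over covered bases was higher in KO for 6 of 8 genes in mESCs (all genes with a peak in both lists: 65.8%), with a median ratio of 1.16 beside 1.05 for all such genes. In MEFs it was higher for 5 of 7 (82.4%), with a median of 1.26, as over all genes (1.26). The 2 genes where it was not higher in either cell type, Atxn7 and Atxn7l1, are the longest. WT and KO means are taken over unlike areas, so they do not compare the same bases. In mESCs the peak over the gene start had a fold of 3.43 (WT) and 3.72 (KO) at Atxn7, and 2.755 and 2.98 at Atxn7l1. The Atxn7 peak that begins 51158 bp (WT) or 50772 bp (KO) past the TSS had 2.87 and 2.72.

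**Figure D5:**
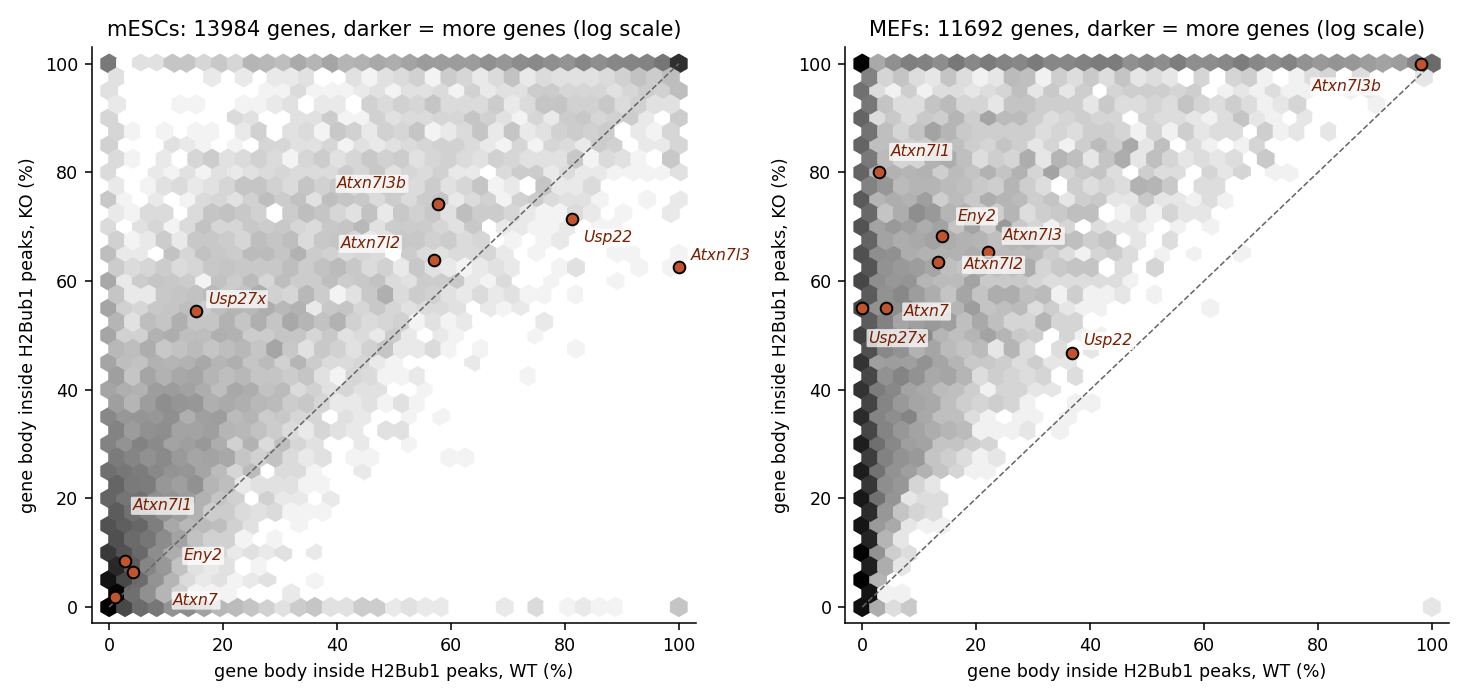
Share of the gene body inside H2Bub1 peaks in KO (y axis) and WT (x axis), in percent, for all protein-coding genes with a peak in either list (grey hexagons, darker for more genes on a log scale) and the named genes (orange), with the dashed line at equal shares. In mESCs Atxn7l3 and Usp22 lie below the line, and in MEFs all 8 plotted genes lie above it.

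Genes with a like H2Bub1 pattern were sought by the root mean square distance of the covered share over the 4 libraries, among genes of 0.5 to 2 times the length. For Atxn7l3, the nearest of 6993 were Lsm3, an RNA-binding Sm-like protein, at 4.45 percentage points, the chaperonin subunit Cct2 at 8.76 and Wdr18 at 9.49. Lsm3 was covered for 100% in WT and 64.3% in KO for mESCs, and for MEFs for 17.4% in WT and 58.0% in KO. The KO shares of Atxn7l3 entered over the whole gene and are set by the segment between Ef and Er, outside which they were 100%, so this likeness rests on a share that the segment lowers. For Usp22, the nearest of 7984 were the transketolase gene Tkt at 4.24, the H2B ligase gene Rnf40 at 4.46 and the receptor gene Adgrl1 at 4.92. Rnf40 was covered for 78.9% in WT and 79.4% in KO for mESCs, and for MEFs for 33.6% in WT and 45.7% in KO.

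Of the H2B ubiquitin ligase list (Rnf20, Rnf40, Ube2a, Ube2b and Wac), the share was higher in KO by 10 points or more for 2 of 5 in mESCs and 5 of 5 in MEFs (all genes with a peak: 50.4% and 84.4%), with Rnf40 lowest (0.536 and 12.1 points) and Ube2b highest (38.0 and 81.3 points). Of 6 other proteases that act on ubiquitylated H2B, 4 of 6 were higher in mESCs and 4 of 5 in MEFs, from Usp7 (0.0905 and 4.43 points) to Usp49 (37.5 and 76.8 points). Of 18 remaining SAGA subunits, 9 of 18 were higher in mESCs and 17 of 18 in MEFs, with medians of 11.4 and 37.9 points. Lower by 10 points was 0 in each list and cell type, where the share over all genes is also small (4.41% for mESCs, 0.205% for MEFs). The Pol II promoter ratio was 1.5 or more in mESCs for 1 of 4, 0 of 2 and 1 of 10 genes of the 3 lists, and 1/1.5 or less in MEFs for 0 of 5, 0 of 4 and 1 of 16 (all genes bound in both lists: 11.0% and 24.3%). The same lower ratio in MEFs was found for 4 of 8 genes of the module and 5 of 6 fibroblast markers, so a lower ratio is not particular to the module.

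Another gene starts within 1000 bp of the TSS of 5 of the 9 genes (4611 of all 21938 protein-coding genes). These are Atxn7l3b, Usp27x, Eny2, Atxn7 and Atxn7l1, and their promoter values hold for both starts.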

How the data were processed

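Peak lists of 8 libraries were analysed. The other 8 of 16 samples, chromatin inputs and libraries for Ser2-phosphorylated Pol II, were not analysed here. Per the labels and methods, the authors aligned single-end reads to mm10 with Bowtie (1.0.0 in the submitters' processing notes) and called peaks per library with MACS2 (2.1.1.20160309), narrow for Pol II and broad for H2Bub1. The authors scaled H2Bub1 by DESeq2 size factors over intergenic regions and Pol II by mapped reads, and how this entered the calls, and which control the peak caller used, is not given in the sources used here. In the deposited files the fold is a ratio, on a linear scale, of pileup to a local background whose source (input or the library itself) is thus unknown, and the deposited -log10 values are those of p and q. A deeper library gives more and wider peaks, so counts and shares carry that limit.

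Peaks were set against GENCODE M21 as 1-based positions. Promoters reached 1000 bp up- and downstream of the annotated gene start (TSS), and bodies spanned the gene record. A body Pol II peak had its summit over 1000 bp past the TSS. Calls used a fold ratio of 1.5 or a difference of 10 percentage points. The genes named were the 9 members, up to 2 per pathway list (highest and lowest), and the 3 nearest to Atxn7l3 and to Usp22. Members and lists were chosen with earlier results of these data known. The functions were tested on simulated peaks. Alternatives tried were keeping peaks with a -log10 q of 3 or more, lists cut to equal length within a pair, a promoter of 100 bp before and 300 bp after the TSS, every annotated transcript start, H2Bub1 peaks joined under 1000 bp, bodies without the first 1000 bp, a body call at 10%, a 5-point call, and Atxn7l3 without the segment. The Atxn7 body from the RefSeq start and the count of covered TSSs were added after seeing the data. Python 3.11.15 with numpy 2.4.6 and pandas 2.3.3 was used, and figures were drawn with matplotlib 3.10.9.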

Additional observations from a re-analysis of the deposited data

Results flagged for a closer look

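Some values moved in opposite directions in the cell types between WT and KO. With 1 library per group, the difference between cell types was not tested for any of them. The H2Bub1 covered share of Atxn7l3 differed by -37.5 percentage points (KO minus WT) in mESCs and by 43.3 in MEFs, and the first value comes from the segment between the primers Ef and Er, outside which the difference was 0. That of Usp22 differed by -9.70 in mESCs and by 9.93 in MEFs, but at a -log10 q of at least 3 by 34.9 and 9.14, in the same direction.

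The KO over WT ratio of Pol II promoter fold lay above 1 in mESCs and below it in MEFs for 4 of the 5 genes bound in all 4 lists, beside 35.0% of the 5520 protein-coding genes so bound. It was 1.86 and 0.658 for Usp22, 1.51 and 0.978 for Eny2, 1.10 and 0.542 for Atxn7, and 1.17 and 0.614 for Atxn7l2. The MEF ratio of Eny2 and the mESC ratio of Atxn7 lie close to 1. Atxn7 counts here by the start of its gene record, near that of Thoc7. At its RefSeq start the KO fold was the higher one in both cell types, with 4.57 (WT) and 5.35 (KO) in mESCs and 19.8 and 22.4 in MEFs, and with the narrower promoter it was bound in KO mESCs only. At a -log10 q of at least 3, or with equal numbers of peaks, Usp22 had no WT promoter peak in mESCs and so no ratio, which leaves 3 of 4 genes (all genes: 34.9% and 32.4%). Over all genes bound in both lists the median ratio was 1.02 in mESCs and 0.853 in MEFs.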

How the results depend on the processing

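Of 100 recomputed counts of genes, 82 stayed within 1.5 times the main count, and of 76 recomputed differences of single genes, 68 kept their sign and side of the 10-point limit. Among the 68 are all those of Usp51, where every value was 0 and there was no direction to keep. Another 3 stayed under the limit without keeping the sign, all in mESCs: Atxn7l2 (6.89 points) became -1.52 with equal numbers of peaks, Atxn7 (0.781) became -0.0501 at the stricter q, and Eny2 (2.23) became 0 without the first 1000 bp. At a -log10 q of at least 3, H2Bub1 lay in the body of 3 genes in WT mESCs (main 8, all genes: 21.3%). In WT MEFs it lay in 2 (main 7, all genes: 5.52%), and in WT mESCs over the TSS of 2 (main 4). The share was higher in KO mESCs for 4 (main 2, all genes: 55.8%). Pol II was bound in KO mESCs only at 2 (main 1, all genes: 14.4%), and its fold was higher in KO mESCs at 1 (main 2, all genes: 10.2%). At that setting the mESC difference became 34.9 points for Usp22, 40.9 for Atxn7l2 and 74.2 for Atxn7l3b (main 16.4), and 1.41 for Atxn7l1 (main 5.78). With equal numbers of peaks, 2 were bound in KO mESCs only (all genes: 21.1%) and 1 had a higher fold in KO mESCs (8.64%). With the narrower promoter, 2 were bound in WT mESCs only (Atxn7l3b and Atxn7l3, all genes: 20.5%), 2 in KO mESCs only (13.9%) and 0 in WT MEFs only (8.23%), where the main count was 1 each. Taking every annotated transcript start gave 1 gene with a lower fold in KO mESCs (main 0). With a body call at 10%, 5 genes had H2Bub1 in WT mESCs and 5 in KO mESCs (main 8 each). A 5-point call gave 4 higher (all genes: 62.9%) and 2 lower (7.1%) in KO mESCs. Joining peaks or leaving out the first 1000 bp gave 2 lower in KO mESCs (main 1), with Usp22 at -13.9 and -10.5 points. No share over all genes is given here for the TSS count, every transcript start, the 10% body call, joined peaks or shortened bodies. Without the segment between Ef and Er, Atxn7l3 differed by 0 in mESCs. The cause of these shifts was not tested, except that the last follows from what was left out.

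No paired analysis was possible because each group has 1 library and no result comes from a test. Leaving out a replicate was not possible for the same reason. Depth limits all absences of peaks, since the number of reads behind a list is unknown.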
